A study of Mus musculus with 7 samples.

Results

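The genes described here are the cytochrome P450 genes of the mouse outside the Ahr battery, that is, every gene whose symbol is Cyp followed by a digit, without the Cyp1 and Cyp26 families. The array carried probes for 92 such genes among 32095 names, and 55 of the 92 were bright enough to be tested among 20664 names. The 92 genes fell into 46 of the Cyp2 family, 8 of Cyp3, 22 of Cyp4 and 16 of other families, and 4 of them are annotated as pseudogenes. Nasal tissue with the septum and the turbinates came from female BALB/c mice. Their age is given as 6 weeks for both exposure times. Age at tissue collection, after 4 or 8 weeks of exposure, is not stated and may differ between the times. Exposed mice breathed diesel exhaust particles (DEP) at 100 µg/m3, suspended in saline and nebulized, for 1 hour per day on 5 days per week. Control mice received saline in the same way. RNA of exposed mice was labelled with Cy5 and RNA of control mice with Cy3, and both were hybridised to the same array, with 4 arrays for the 4-week exposure and 3 for the 8-week exposure. No source used here states how many mice were behind an array or whether control RNA was pooled, so the p-values measure the spread between arrays, which may be technical.

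P450 enzymes are haem proteins that insert an oxygen atom into fats, steroids, drugs and inhaled chemicals. Most sit in the endoplasmic reticulum and receive electrons from a common reductase, while a few lie in mitochondria and use a ferredoxin. The nasal mucosa, above all the sustentacular cells and Bowman's glands of the olfactory epithelium, is one of the richest sites of these enzymes outside the liver, and there they clear odorants and activate inhaled toxicants. The Cyp2 and Cyp3 families act mainly on foreign chemicals and steroids, the Cyp4 family hydroxylates the ends of fatty acids and eicosanoids, and the other families serve sterol, bile acid, steroid hormone and vitamin D metabolism.

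The measure is the log2 ratio of DEP over control, in which 0 means equal levels, 1 means 2-fold more in DEP tissue and -1 the reverse. A gene was called higher or lower when limma found the mean of an exposure time to differ from 0, with p-values adjusted over all 25162 tested probes and a threshold of 0.05. Dyes were never swapped, so a dye effect and an effect of DEP cannot be told apart at either time, and the 4-week and the 8-week arrays lay on different slides, so that an effect of the slide and one of the time cannot be told apart either. A dye effect that is equal on all arrays cancels in the difference between the times. Precision is limited by how few arrays there were.

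After 4 weeks, 12 of the 55 tested P450 genes were higher and 12 were lower in DEP tissue. Over all names tested, 21.5% were higher and 16.7% lower at that time. After 8 weeks, 8 P450 genes were higher and 21 were lower, against 20.4% and 17.1% of all names. In RNA of whole tissue, fewer cells of a type and less RNA per cell cannot be told apart. The difference between the times was called for 23 P450 genes, of which 4 had the higher ratio at 8 weeks and 19 the lower one, against 15% and 16.1% of all names. The lower calls thus made up 38.2% of the P450 genes at 8 weeks and 34.5% in the difference, larger shares than of all names. Close copies such as *Cyp4a10*, *Cyp4a31* and *Cyp4a32* were each counted here, and they may share signal. Centring each array on its median in place of loess turned the balance of calls over all names, to 3202 higher and 4403 lower at 4 weeks and to 2545 higher and 6906 lower at 8 weeks, while the P450 genes stood at 10 higher and 15 lower and at 8 higher and 24 lower. The share of higher calls at 8 weeks, 14.5% of the P450 genes with loess and so below that of all names, was above it with median centring (14.5% against 12.3%) and near it with the scanner software's own processed signals (20% against 19.9%), while the share of lower calls at 8 weeks stayed above that of all names in both (43.6% against 33.4% and 41.8% against 19.2%). In the difference between the times, median centring left 1793 names higher and 4376 lower, and 2 P450 genes higher and 21 lower. The processed signals put 67.9% of the calls over all names at 4 weeks on the higher side, against 56.3% with loess, and 35.6% of those in the difference, against 48.2%.

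The median log2 ratio of the P450 genes was -0.053 at 4 weeks and -0.115 at 8 weeks, against 0 and 0.013 over all names. On single arrays it lay between -0.05 and 0.025 at 4 weeks and between -0.179 and -0.066 at 8 weeks. At the thresholds of the study, an unadjusted p of at most 0.01 with at least a 2-fold change, limma called 0 of the 55 genes at 4 weeks, where 1.31% of all names passed. At that time 31 of the 55 genes (56.4%) had an unadjusted p under 0.05, against 48% of all names, and the scanner software's own processed signals put 6 genes past those thresholds. After 8 weeks 5 P450 genes passed them, 1 higher (*Cyp21a1*) and 4 lower (*Cyp4a10*, *Cyp4a31*, *Cyp4a32* and *Cyp4f15*), against 2.94% of all names. The 8-week values of *Cyp4a32* and *Cyp4f15* each include 1 spot that the scanner software marked for its background. In all, 37 of the 55 genes (67.3%) were called at 4 or 8 weeks and 18 at neither, where 56.5% of all names were called at 4 or 8 weeks.

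**Figure D1:**
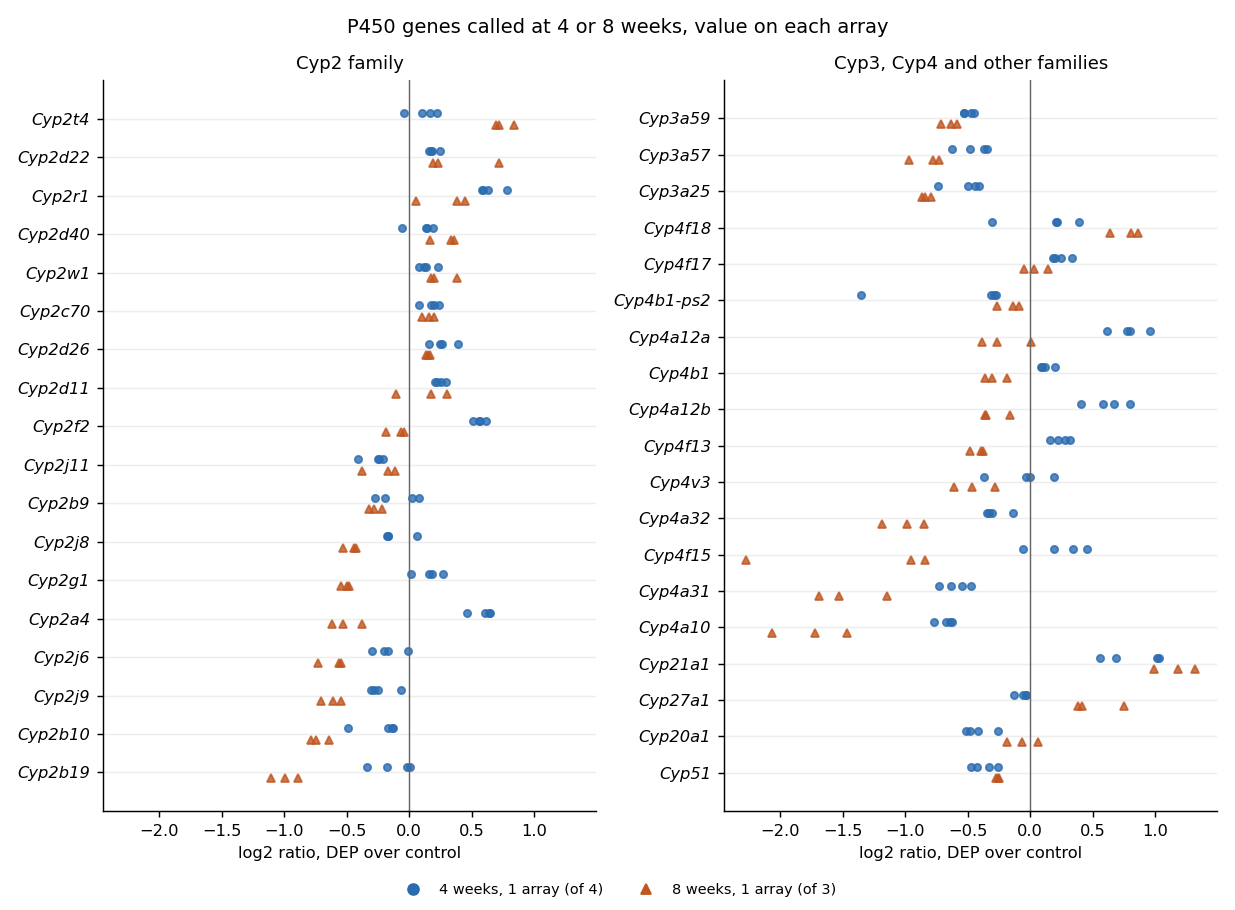
Log2 ratio of DEP over control on each array (x axis) for the 37 P450 genes called at 4 or 8 weeks (y axis), with circles for the 4 arrays of 4 weeks and triangles for the 3 arrays of 8 weeks. *Cyp2a4*, *Cyp4a12b* and *Cyp4f13* lie above 0 on every 4-week array and below 0 on every 8-week array, and *Cyp4a10* and *Cyp4a31* lie farther below 0 on every 8-week array than on any 4-week array.

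Of the tested genes, 40 lay in 7 chromosomal clusters of at least 3 tested genes with gaps of no more than 1000000 bases between neighbours. The cluster at chr7:25802469-27158564 (GRCm38.p6) holds the P450s best known from nasal mucosa. Of its 8 tested genes, 3 were higher and 1 lower at 4 weeks, against 21.5% and 16.7% of all names. At 8 weeks 1 of the 8 was higher and 5 were lower, against 20.4% and 17.1% of all names. Sequences before the start of 3 of these genes are shown because their ratios ran differently, with *Cyp2a4* higher and then lower, *Cyp2f2* higher at 4 weeks, and *Cyp2b10* lower at both times. Each line gives the 250 bases before a transcript start annotated in RefSeq (GRCm38.p6), 5′ to 3′, with capitals for a TATA box (TATAAA) or a C/EBP site (TTGCNNAA).
Cyp2a4, chr7:26306942-26307191, plus strand: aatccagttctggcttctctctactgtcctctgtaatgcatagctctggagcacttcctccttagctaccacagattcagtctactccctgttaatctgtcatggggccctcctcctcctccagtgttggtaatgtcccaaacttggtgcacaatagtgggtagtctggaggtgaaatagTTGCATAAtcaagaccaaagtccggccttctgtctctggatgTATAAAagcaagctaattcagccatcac
Cyp2f2, chr7:27119705-27119954, plus strand: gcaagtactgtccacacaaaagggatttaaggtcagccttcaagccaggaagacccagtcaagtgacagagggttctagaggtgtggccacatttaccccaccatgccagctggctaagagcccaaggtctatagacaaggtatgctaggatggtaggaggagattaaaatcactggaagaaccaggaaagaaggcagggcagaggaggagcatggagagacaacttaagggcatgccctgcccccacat
Cyp2b10, chr7:25897408-25897657, plus strand: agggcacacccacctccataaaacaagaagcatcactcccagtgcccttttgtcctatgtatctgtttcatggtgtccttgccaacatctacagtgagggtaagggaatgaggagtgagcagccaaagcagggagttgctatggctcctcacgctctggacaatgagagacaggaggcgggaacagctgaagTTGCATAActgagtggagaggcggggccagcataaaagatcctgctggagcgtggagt
In *Cyp2a4* the TATA box began at position -28 and the C/EBP site at -70, in *Cyp2b10* a C/EBP site began at -58, and *Cyp2f2* held neither in this window. The 8 letters of the C/EBP match were the same in *Cyp2a4* and *Cyp2b10*.

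*Cyp2a4* (chr7:26307192-26315088), a steroid 15-alpha-hydroxylase whose close copy *Cyp2a5* oxidises coumarin and nicotine, had log2 ratios of 0.65, 0.61, 0.64 and 0.46 on the 4-week arrays and -0.53, -0.38 and -0.62 on the 8-week arrays. Every 4-week array was above 0 and every 8-week array below it. The spots on replicate 3 of 4 weeks and replicate 1 of 8 weeks were marked for their background. The mean was 0.59 ± 0.085 (SD, n = 4, adjusted p = 0.00023) at 4 weeks, a 1.5-fold higher level, and -0.51 ± 0.12 (SD, n = 3, adjusted p = 0.00083) at 8 weeks, a 1.42-fold lower level. The difference between the times was -1.10 (standard error 0.085, adjusted p = 0.00014). The other tested probe of the gene gave 0.45 and -0.48. *Cyp2a5* had no probe matched here, and *Cyp2a4* and *Cyp2a5* are near-identical, so the signal may come from either gene.

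*Cyp2f2* (chr7:27119955-27133660), which activates naphthalene in airway and olfactory mucosa, had ratios of 0.56, 0.57, 0.61 and 0.51 at 4 weeks, with a mean of 0.56 ± 0.042 (SD, n = 4, adjusted p = 0.0001). At 8 weeks its ratios were -0.04, -0.07 and -0.19, with a mean of -0.10 ± 0.08 (SD, n = 3, adjusted p = 0.19), and the difference between the times was -0.66 (standard error 0.07, adjusted p = 0.00052). The 4-week arrays lay within a narrow band far above all 8-week arrays. *Cyp2g1* (chr7:26808927-26821197), an enzyme found almost only in olfactory mucosa, had ratios of 0.01, 0.18, 0.27 and 0.16 at 4 weeks and -0.54, -0.48 and -0.50 at 8 weeks. Its mean was -0.51 ± 0.034 (SD, n = 3, adjusted p = 0.00057) at 8 weeks, with a difference of -0.66 (standard error 0.079, adjusted p = 0.00091). The small 4-week mean of 0.16 (adjusted p = 0.046) passed the threshold only narrowly and was lost on leaving out any of 6 arrays, all but replicate 1 of 4 weeks (adjusted p = 0.058 to 0.17).

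*Cyp2b10* (chr7:25897658-25926624), the classical target of the nuclear receptor CAR, was lower at both times, with ratios of -0.49, -0.13, -0.17 and -0.14 at 4 weeks and -0.78, -0.64 and -0.74 at 8 weeks. The 8-week mean was -0.72 ± 0.075 (SD, n = 3, adjusted p = 0.00039), a 1.65-fold lower level. Replicate 1 stood apart at 4 weeks, and the 4-week call (-0.23, adjusted p = 0.032) was lost on leaving out any of 5 arrays, among them each 4-week array (adjusted p = 0.051 to 0.061), with a mean of -0.15 without replicate 1. *Cyp2b19* (chr7:26757142-26772630), an arachidonic acid epoxygenase of keratinocytes, had ratios of -0.33, -0.18, -0.02 and 0.01 at 4 weeks (mean -0.13, adjusted p = 0.17) and -0.99, -0.89 and -1.10 at 8 weeks. Its 8-week mean of -0.99 ± 0.11 (SD, n = 3, adjusted p = 7.4e-05) was a 1.99-fold lower level, just short of 2-fold, with a difference between the times of -0.86 (standard error 0.11, adjusted p = 0.001). *Cyp2b9*, another Cyp2b gene, had -0.27 at 8 weeks (adjusted p = 0.028), a call that was lost on leaving out any 8-week array (adjusted p = 0.069 to 0.14).

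At the edges of the same cluster, *Cyp2t4* (chr7:27153714-27158564) went the other way. Its ratios were 0.22, -0.04, 0.16 and 0.10 at 4 weeks (mean 0.11, adjusted p = 0.16) and 0.84, 0.72 and 0.70 at 8 weeks. The 8-week mean was 0.75 ± 0.075 (SD, n = 3, adjusted p = 0.00011), a 1.68-fold higher level, and the 8-week arrays all lay above the 4-week arrays. *Cyp2s1*, an extrahepatic P450 of epithelia, had -0.14, 0.06, 0.20 and 0.14 at 4 weeks and 0.16, 0.04 and -0.18 at 8 weeks and was called at neither time (adjusted p = 0.51 and 0.95).

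Markers of the cells that the tissue could hold moved along with the exposure times. Over all names, 21.5% were higher and 16.7% lower at 4 weeks, and 20.4% and 17.1% at 8 weeks. Of 10 markers of mature olfactory neurons, 8 were higher and 0 lower at 4 weeks, and 0 were higher and 9 lower at 8 weeks, with medians between 0.32 and 0.52 on the 4-week arrays and between -0.64 and -0.51 on the 8-week arrays. Of 7 sustentacular markers, 4 were higher and 1 lower at 4 weeks and 1 higher and 6 lower at 8 weeks, with medians of 0.11 to 0.29 and of -0.55 to -0.48. *Cbr2*, the sustentacular carbonyl reductase, had 0.28, 0.77, 0.79 and 0.71 at 4 weeks and -0.42, -0.67 and -0.97 at 8 weeks. These lists changed side between the times, as did 4 P450 genes (7.27%), *Cyp2a4*, *Cyp2g1*, *Cyp4a12b* and *Cyp4f13*, where 3.46% of all names were higher at 4 and lower at 8 weeks. Of these 4 genes, only *Cyp2a4* kept both calls in every setting tried. The part of these cells in the P450 values was not tested.

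**Figure D2:**
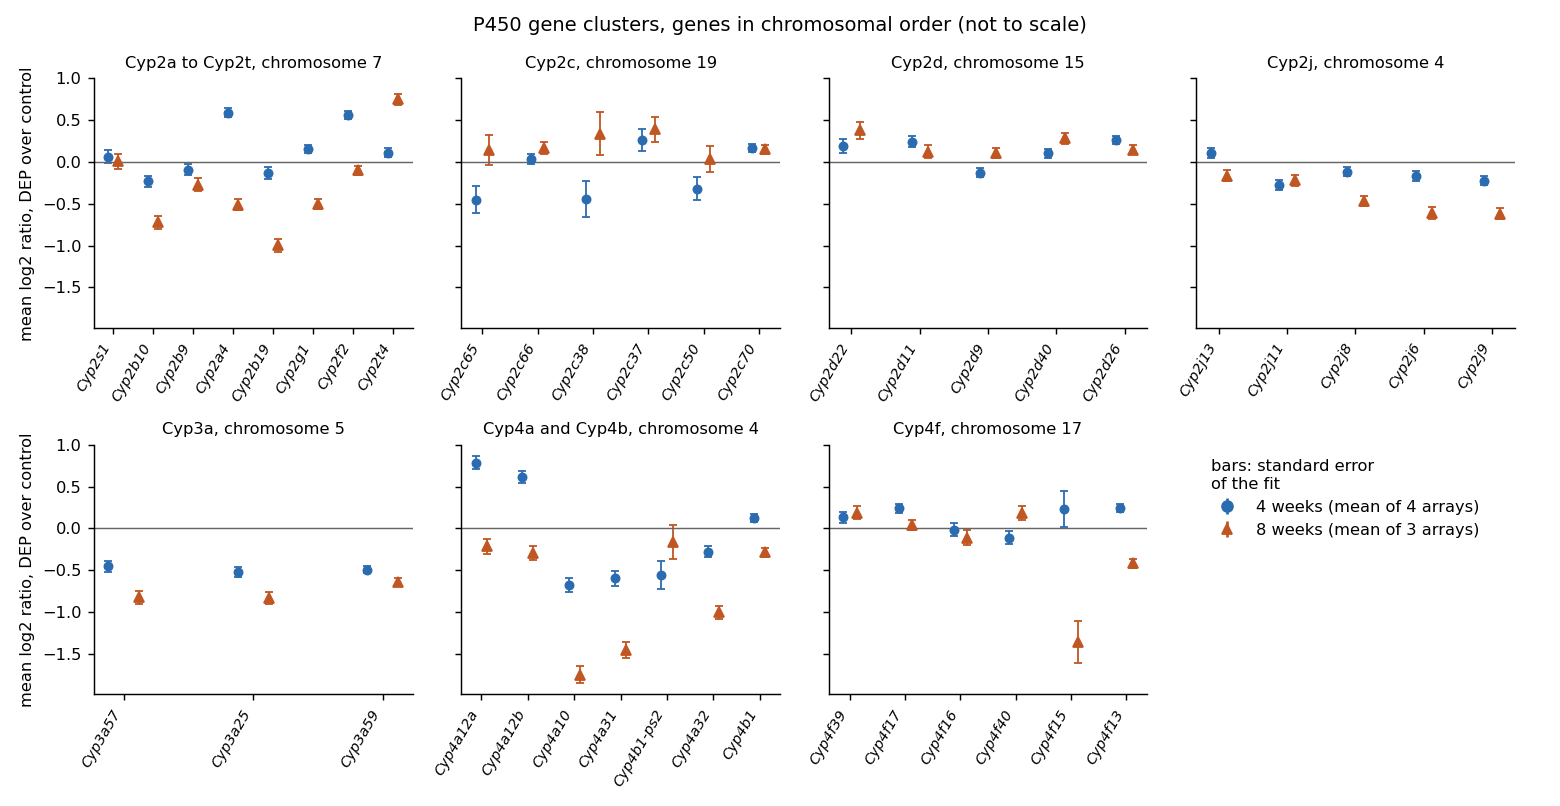
Mean log2 ratio of DEP over control (y axis) at 4 weeks (circles) and 8 weeks (triangles), with the standard error of the fit as bars, for the tested genes of 7 P450 clusters in chromosomal order (x axis, not to scale). In the Cyp4a and Cyp4b cluster the 4-week means run from -0.68 to 0.79, while all 8-week means lie below 0, and in the Cyp3a cluster all means are negative.

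The Cyp2j genes at chr4:96042660-96592523 encode epoxygenases of arachidonic acid, and 4 of the 5 tested were lower at 8 weeks, against 17.1% of all names. *Cyp2j6* had -0.01, -0.21, -0.17 and -0.30 at 4 weeks, where it was not called, and -0.54, -0.56 and -0.73 at 8 weeks, with a mean of -0.61 ± 0.1 (SD, n = 3, adjusted p = 0.00047), and *Cyp2j9* had -0.61, -0.70 and -0.55, with a mean of -0.62 ± 0.079 (SD, n = 3, adjusted p = 0.00029). *Cyp2j8* (-0.46) was lower at 8 weeks as well. All 3 had a lower ratio at 8 than at 4 weeks, with differences of -0.44, -0.39 and -0.35. The differences of *Cyp2j9* and *Cyp2j8* lost their call without replicate 2 of 8 weeks (adjusted p = 0.056 and 0.054), and that of *Cyp2j8* also without replicate 1 of 8 weeks (adjusted p = 0.052). *Cyp2j11* was not well above background in DEP tissue on any array. It was called lower at 4 weeks (mean -0.28, adjusted p = 0.0087) and at 8 weeks (mean -0.22, adjusted p = 0.039), but no fold is given for it. The 8-week call was lost on leaving out any of 4 arrays. Control tissue was well above background for *Cyp2j11* on only 1 of 4 arrays at 4 weeks and 2 of 3 at 8 weeks. Its uncorrected 4-week signals were 69 to 73 in DEP and 72 to 75 in control tissue, so both dyes were near the floor. Of the calls at 4 weeks, that of *Cyp2j9* (-0.22, adjusted p = 0.016) was lost without replicate 2, 3 or 4 (adjusted p = 0.062 to 0.067). The 2 tested probes of *Cyp2j6* had opposite signs at 4 weeks, -0.17 and 0.0025, and the same sign at 8 weeks. *Cyp2j13* was called at neither time, and transcripts of close copies in this subfamily may share a probe.

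The Cyp2c cluster at chr19:39061006-40187286 and the Cyp2d cluster at chr15:82370527-82794452 hold drug and fatty acid hydroxylases that are abundant in liver, and many genes of these subfamilies were too dim here to be tested. Of 6 tested Cyp2c genes of the cluster, only *Cyp2c70*, which makes muricholic bile acids, was called, with 0.17 at 4 weeks (adjusted p = 0.022), a call lost without replicate 2 or 4 (adjusted p = 0.076 and 0.087), and *Cyp2c37*, *Cyp2c38*, *Cyp2c50*, *Cyp2c65* and *Cyp2c66* were called at neither time. Among 5 tested Cyp2d genes, *Cyp2d11* and *Cyp2d26* were higher at 4 weeks, and *Cyp2d22* and *Cyp2d40* were higher at 8 weeks, while *Cyp2d9* was called at neither. For both clusters the shares to compare are 21.5% of all names higher at 4 weeks and 20.4% at 8 weeks. *Cyp2d11* had 0.22, 0.29, 0.26 and 0.21 at 4 weeks, with a mean of 0.25 ± 0.038 (SD, n = 4, adjusted p = 0.025), and *Cyp2d26* had 0.39, 0.25, 0.26 and 0.16, with a mean of 0.27 ± 0.093 (SD, n = 4, adjusted p = 0.0046). Control tissue was not well above background for *Cyp2d26* on any 4-week array, and no fold is given for it. All of these ratios were above 0, but *Cyp2d11* lost its call on leaving out any 4-week array (adjusted p = 0.051 to 0.084). *Cyp2d40* had 0.36, 0.33 and 0.17 at 8 weeks, with a mean of 0.29 ± 0.11 (SD, n = 3, adjusted p = 0.013), and lost its call without replicate 1 or 2 of 8 weeks (adjusted p = 0.065 and 0.083). *Cyp2d22* leaned on replicate 1, with ratios of 0.72, 0.23 and 0.19 at 8 weeks, a mean of 0.38 ± 0.29 (SD, n = 3, adjusted p = 0.02), and a mean of 0.21 (adjusted p = 0.037) without that array.

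Among the Cyp2 genes outside clusters, *Cyp2r1* (chr7:114550123-114563048), the main 25-hydroxylase of vitamin D, had ratios of 0.63, 0.59, 0.58 and 0.78 at 4 weeks, with a mean of 0.64 ± 0.092 (SD, n = 4, adjusted p = 0.00051). At 8 weeks it had 0.45, 0.39 and 0.05, with a mean of 0.30 ± 0.21 (SD, n = 3, adjusted p = 0.028). All arrays were above 0, but the 8-week call was lost without replicate 1 or 2 of 8 weeks (adjusted p = 0.14 and 0.15), and with median centring the 8-week mean turned to -0.02. The difference between the times was -0.35 (standard error 0.11, adjusted p = 0.049) and lost its call on leaving out any array but replicate 1 of 8 weeks. *Cyp2w1* was higher at 8 weeks, with 0.17, 0.38 and 0.20 and a mean of 0.25 ± 0.11 (SD, n = 3, adjusted p = 0.014), which was lost without replicate 2 (adjusted p = 0.1). *Cyp2e1*, the ethanol-inducible P450, had ratios of -1.72, -0.22, -0.07 and -0.20 at 4 weeks and -0.15, -0.25 and -0.20 at 8 weeks, and its means of -0.55 and -0.20 were not called, while a dimmer probe was lower at 8 weeks (-0.31, adjusted p = 0.012). On replicate 1 of 4 weeks the control signal of its spot was 1142, against 206.5 to 234 on the other 4-week arrays. *Cyp2c23*, an arachidonic acid epoxygenase, had ratios of 0.21, 0.09, -2.19 and -3.0 at 4 weeks, the last 2 of them from spots that the scanner software marked for their background, and was not called.

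Of the Cyp3a genes, which hydroxylate steroids and many drugs, 3 of the 4 tested lie together at chr5:145345149-146114978, and all 3 were lower at both times. Of all names, 16.7% were lower at 4 weeks and 17.1% at 8 weeks. The bases before their transcript starts are shown because the 3 genes moved together and are near copies, given as above with capitals for a TATA box or a C/EBP site. Each stretch precedes an annotated transcript start, and its end nearest that start lies inside the gene span given below.
Cyp3a25, chr5:146009618-146009867, minus strand: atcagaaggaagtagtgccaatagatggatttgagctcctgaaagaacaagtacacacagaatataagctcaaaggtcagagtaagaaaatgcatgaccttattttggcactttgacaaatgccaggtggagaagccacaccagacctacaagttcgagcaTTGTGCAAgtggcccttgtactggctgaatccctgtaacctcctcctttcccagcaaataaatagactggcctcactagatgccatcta
Cyp3a57, chr5:145345019-145345268, plus strand: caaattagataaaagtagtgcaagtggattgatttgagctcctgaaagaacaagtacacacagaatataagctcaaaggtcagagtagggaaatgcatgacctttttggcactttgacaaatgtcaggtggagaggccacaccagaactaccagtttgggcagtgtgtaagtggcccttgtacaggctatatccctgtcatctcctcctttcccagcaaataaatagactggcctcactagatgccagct
Cyp3a59, chr5:146079008-146079257, plus strand: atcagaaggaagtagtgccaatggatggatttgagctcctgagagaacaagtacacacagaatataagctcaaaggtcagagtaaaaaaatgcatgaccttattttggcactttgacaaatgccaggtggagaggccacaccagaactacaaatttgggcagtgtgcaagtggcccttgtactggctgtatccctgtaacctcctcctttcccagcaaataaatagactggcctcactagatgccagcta
In global alignments these stretches were 95.6% identical between *Cyp3a25* and *Cyp3a59*, 90.1% between *Cyp3a57* and *Cyp3a59* and 88.1% between *Cyp3a25* and *Cyp3a57*. That of *Cyp3a13*, which lies outside the cluster, was 48.1% to 49.5% identical to them. *Cyp3a25* held a C/EBP site at -89, and the other 2 held neither motif.

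*Cyp3a25* (chr5:145977192-146009644) had ratios of -0.74, -0.41, -0.50 and -0.44 at 4 weeks and -0.86, -0.84 and -0.79 at 8 weeks, with means of -0.52 ± 0.15 (SD, n = 4, adjusted p = 0.00058) and -0.83 ± 0.038 (SD, n = 3, adjusted p = 9.9e-05). *Cyp3a57* (chr5:145345149-145390926) had -0.63, -0.34, -0.48 and -0.37 at 4 weeks and -0.97, -0.73 and -0.78 at 8 weeks, with means of -0.46 ± 0.13 (SD, n = 4, adjusted p = 0.0015) and -0.83 ± 0.13 (SD, n = 3, adjusted p = 0.00014). Both genes were below 0 on 7 of 7 arrays and 8-week arrays lay below all 4-week arrays, though the methods' t-test gave neither a call at 4 weeks (adjusted p = 0.11 for each). That test sets DEP levels against control levels without pairing the 2 dyes of an array. *Cyp3a59* (chr5:146079208-146114978) had -0.47, -0.53, -0.53 and -0.45 at 4 weeks, with a mean of -0.50 ± 0.04 (SD, n = 4, adjusted p = 0.00016). At 8 weeks it had -0.64, -0.71 and -0.58, with a mean of -0.64 ± 0.067 (SD, n = 3, adjusted p = 6.9e-05). DEP tissue was not well above background on this probe on any 8-week array, and no fold is given for it. The other tested probe of *Cyp3a59*, well above background in DEP tissue on 1 of the 3 arrays, had a smaller 8-week mean of -0.51 ± 0.21 (SD, n = 3, adjusted p = 0.0023). The differences between the times of *Cyp3a25* (-0.31, adjusted p = 0.04) and *Cyp3a57* (-0.37, adjusted p = 0.027) were lost on leaving out any of 6 and any of 5 arrays. Probe sequences were not used here, so how much of each signal comes from which copy was not tested. *Cyp3a13* was called at neither time, and its 2 tested probes had opposite signs at 8 weeks (-0.27 and 0.29).

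The cluster at chr4:115299046-115647721 holds the Cyp4a and Cyp4b genes, and its members split at 4 weeks. *Cyp4a12a* (chr4:115299046-115332815), which makes the eicosanoid 20-HETE and is known as a male-predominant gene of liver and kidney, had ratios of 0.96, 0.78, 0.80 and 0.61 at 4 weeks and 0.01, -0.27 and -0.38 at 8 weeks. Its 4-week mean of 0.79 ± 0.14 (SD, n = 4, adjusted p = 0.00028) was a 1.73-fold higher level, and its 8-week mean of -0.21 was not called (adjusted p = 0.1). *Cyp4a12b* (chr4:115411624-115439034), its near-identical copy, had 0.80, 0.59, 0.67 and 0.41 and -0.16, -0.36 and -0.36, with means of 0.62 ± 0.16 (SD, n = 4, adjusted p = 0.00053) and -0.29 ± 0.11 (SD, n = 3, adjusted p = 0.025). Both copies were above 0 on all 4-week arrays, and the differences between the times were -1.0 (standard error 0.12, adjusted p = 0.00091) and -0.91 (standard error 0.11, adjusted p = 0.00087). The 8-week call of *Cyp4a12b* was lost without replicate 2 or 3 of 8 weeks (adjusted p = 0.13 and 0.11).

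The neighbouring *Cyp4a10*, *Cyp4a31* and *Cyp4a32*, fatty acid omega-hydroxylases of which *Cyp4a10* is a classical PPAR-alpha target, were lower at both times. *Cyp4a10* (chr4:115518287-115533649) had ratios of -0.67, -0.64, -0.63 and -0.77 at 4 weeks and -1.47, -1.72 and -2.06 at 8 weeks. Its means were -0.68 ± 0.064 (SD, n = 4, adjusted p = 0.00099) and -1.75 ± 0.3 (SD, n = 3, adjusted p = 1.4e-05), which are 1.6-fold and 3.37-fold lower levels, and the difference was -1.07 (standard error 0.13, adjusted p = 0.0011). The lowest 4-week array was still above the highest 8-week array. The other 2 tested probes of *Cyp4a10* gave means of -1.26 and -0.29 at 4 weeks and -1.71 and -0.61 at 8 weeks, the first with a ratio of -2.80 on replicate 2 of 4 weeks from a spot marked for its background.

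*Cyp4a31* (chr4:115563627-115579015) had ratios of -0.47, -0.63, -0.55 and -0.73 at 4 weeks and -1.15, -1.53 and -1.69 at 8 weeks, with means of -0.60 ± 0.11 (SD, n = 4, adjusted p = 0.0018) and -1.46 ± 0.28 (SD, n = 3, adjusted p = 3.7e-05). Its 3 tested probes were not alike, since the dimmer ones had 8-week means of -0.23 and 0.15, and the mean over its probes gave a difference between the times of -0.17 (adjusted p = 0.21) in place of -0.86. *Cyp4a32* (chr4:115600927-115622507) had -0.30, -0.35, -0.33 and -0.14 and -0.85, -0.98 and -1.18, with means of -0.28 ± 0.094 (SD, n = 4, adjusted p = 0.013) and -1.01 ± 0.17 (SD, n = 3, adjusted p = 5e-05), the first of which lost its call without replicate 2 of 4 weeks (adjusted p = 0.053). The -1.18 of *Cyp4a32* came from a spot marked for its background. Over the settings tried, the 8-week mean of this gene was -0.92 at the weakest, short of 2-fold. *Cyp4a10*, *Cyp4a31* and *Cyp4a32* are close copies, so their values may share signal. *Cyp4b1* (chr4:115624698-115647721), which activates inhaled furans in airway epithelium, had 0.20, 0.09, 0.11 and 0.09 at 4 weeks (mean 0.12, adjusted p = 0.078) and -0.36, -0.30 and -0.19 at 8 weeks, with a mean of -0.29 ± 0.089 (SD, n = 3, adjusted p = 0.0057) and a difference of -0.41 (standard error 0.073, adjusted p = 0.0053). The pseudogene *Cyp4b1-ps2* was not well above background in DEP tissue on any array, and in control tissue only on 2 of the 4 arrays of 4 weeks. It was called lower at 4 weeks (mean -0.56, adjusted p = 0.037), with replicate 2 (-1.35) apart from the other arrays (-0.31, -0.27 and -0.29). No fold is given for it. That call was lost on leaving out any of 5 arrays, but not without replicate 2 itself or replicate 3 of 4 weeks.

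The Cyp4f genes hydroxylate leukotriene B4 and other eicosanoids, and 6 of them lie at chr17:32452697-32947415. *Cyp4f13* (chr17:32924688-32947415) had ratios of 0.16, 0.32, 0.22 and 0.28 at 4 weeks and -0.39, -0.48 and -0.38 at 8 weeks, with means of 0.24 ± 0.07 (SD, n = 4, adjusted p = 0.0055) and -0.42 ± 0.056 (SD, n = 3, adjusted p = 0.00088) and a difference of -0.66 (standard error 0.071, adjusted p = 0.00056). Its 4-week call was lost with median centring (0.17, adjusted p = 0.069), and both calls were lost with the methods' t-test (adjusted p = 0.099 and 0.15). That test does not pair the 2 dyes of an array. At 8 weeks the DEP and control levels had SDs of 0.17 and 0.22, against 0.056 for the ratio. *Cyp4f15* (chr17:32685631-32703352) had -0.06, 0.19, 0.34 and 0.45 at 4 weeks and -2.27, -0.95 and -0.84 at 8 weeks. All 3 of its 8-week arrays were below all 4-week arrays, but the ratio of replicate 1 came from a spot marked for its background, and the 8-week mean of -1.36 ± 0.79 (SD, n = 3, adjusted p = 0.0048) became -0.90 without such spots. *Cyp4f17* was higher at 4 weeks (0.24, adjusted p = 0.0086), and *Cyp4f16*, *Cyp4f39* and *Cyp4f40* were called at neither time. Outside the cluster, *Cyp4f18* (chr8:71988482-72009668), the leukotriene B4 hydroxylase of mouse neutrophils, had -0.31, 0.20, 0.39 and 0.21 at 4 weeks and 0.80, 0.86 and 0.64 at 8 weeks, with an 8-week mean of 0.77 ± 0.12 (SD, n = 3, adjusted p = 0.0024), a 1.7-fold higher level. Its difference between the times was 0.64 (standard error 0.16, adjusted p = 0.021) and lost its call without replicate 1 or 2 of 8 weeks (adjusted p = 0.06 and 0.083). The -0.31 came from a spot marked for its background, with a control signal of 317, against 138.5 to 179.5 on the other 4-week arrays. *Cyp4v3*, a fatty acid hydroxylase, was lower at 8 weeks (-0.45, adjusted p = 0.013), a call lost without replicate 1 or 3 of 8 weeks (adjusted p = 0.056 and 0.079).

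Among the steroid and sterol enzymes, *Cyp21a1* (chr17:34801348-34804426), the steroid 21-hydroxylase of the adrenal cortex, had the highest mean of any called P450 gene at both times. Its ratios were 0.56, 1.03, 0.68 and 1.01 at 4 weeks and 1.32, 1.18 and 0.99 at 8 weeks. The means were 0.82 ± 0.24 (SD, n = 4, adjusted p = 0.00053), a 1.77-fold higher level, and 1.16 ± 0.16 (SD, n = 3, adjusted p = 0.00016), a 2.24-fold higher level. The values of both times overlapped, and the difference of 0.34 was not called (adjusted p = 0.11). A near-identical pseudogene copy exists, and its share in the signal was not tested. *Cyp17a1*, the steroid 17-alpha-hydroxylase, had 0.43, 0.24, 0.35 and 0.53 at 4 weeks and 0.80, 0.24 and -0.63 at 8 weeks, a wide spread at 8 weeks, and was not called.

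*Cyp27a1* (chr1:74713148-74737897), the mitochondrial sterol 27-hydroxylase, had ratios of -0.03, -0.06, -0.03 and -0.13 at 4 weeks and 0.41, 0.38 and 0.75 at 8 weeks. Its 8-week mean was 0.51 ± 0.2 (SD, n = 3, adjusted p = 0.0018), and the difference between the times was 0.58 (standard error 0.1, adjusted p = 0.0051). Spots of its probe split into brighter and dimmer ones on every 8-week array. On replicate 2 the brighter ones had uncorrected DEP signals of 223 to 265, against 172 to 201 in control tissue. The dimmer ones had 99 to 127, against 114.5 to 126. At 4 weeks control tissue was well above background on only 1 of the 4 arrays. *Cyp20a1* (chr1:60343300-60388060), a P450 without a settled substrate, went from lower at 4 weeks, with -0.51, -0.42, -0.26 and -0.48 and a mean of -0.42 ± 0.11 (SD, n = 4, adjusted p = 0.0017), to -0.07, 0.07 and -0.18 at 8 weeks, where it was not called. Its difference of 0.36 (adjusted p = 0.025) was lost on leaving out any of 4 arrays. *Cyp51* (chr5:4080674-4104697), the lanosterol demethylase of cholesterol synthesis, was lower at both times, with -0.26, -0.48, -0.33 and -0.43 at 4 weeks and -0.27, -0.26 and -0.25 at 8 weeks. Its means were -0.37 ± 0.098 (SD, n = 4, adjusted p = 0.0011) and -0.26 ± 0.011 (SD, n = 3, adjusted p = 0.0098), the latter lost without replicate 2 of 8 weeks (adjusted p = 0.056). The oxysterol hydroxylases *Cyp7b1* and *Cyp39a1* and the cholesterol 24-hydroxylase *Cyp46a1* were called at neither time, with means between -0.20 and -0.01 at 4 weeks and between -0.08 and 0.31 at 8 weeks. *Cyp7b1* had 0.12, 0.11, -0.12 and -0.13 at 4 weeks and -0.09, -0.04 and -0.10 at 8 weeks.

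*Cyp51* belongs to cholesterol synthesis, and 18 other genes of that pathway were tested. At 4 weeks 12 of the 18 were lower and 0 higher, with a median of -0.30, and at 8 weeks 8 were lower and 3 higher, with a median of -0.11. Of all names 16.7% were lower at 4 weeks and 17.1% at 8 weeks. *Sqle*, the squalene epoxidase, had -0.78, -0.76, -0.79 and -0.73 at 4 weeks and -1.68, -1.56 and -1.61 at 8 weeks, and was lower at both times (adjusted p = 1.6e-05 and 1.3e-06). *Lss*, which makes the lanosterol that *Cyp51* uses, was lower at both times as well (-1.03 and -0.75). *Hmgcs1*, an early enzyme of the pathway, was lower at 4 weeks (-0.27) and higher at 8 weeks (0.69).

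The levels of the 2 channels, given as log2 intensity after normalisation between arrays, give both sides of each ratio. DEP tissue had *Cyp2a4* levels of 15.88, 15.83, 15.90 and 15.76 at 4 weeks and 15.90, 15.99 and 15.92 at 8 weeks, and control tissue had 15.23, 15.22, 15.27 and 15.29 and 16.42, 16.37 and 16.54. The DEP levels of both times were close, and the control levels were higher at 8 weeks on every array. For *Cyp4a12a* the DEP means were 9.52 and 9.43, and the control means 8.74 and 9.64. *Cyp2f2* had DEP means of 15.32 and 15.63 and control means of 14.76 and 15.72. In these 3 genes the control level differed more between the times than the DEP level. *Cyp2b19* differed mainly on the DEP side, with DEP means of 10.05 and 8.73 and control means of 10.18 and 9.72. Levels of the times come from different slides, and the mice may have differed in age. The differences between the times in these levels cannot be told apart from the slide or from age, and no test was made on them.

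**Figure D3:**
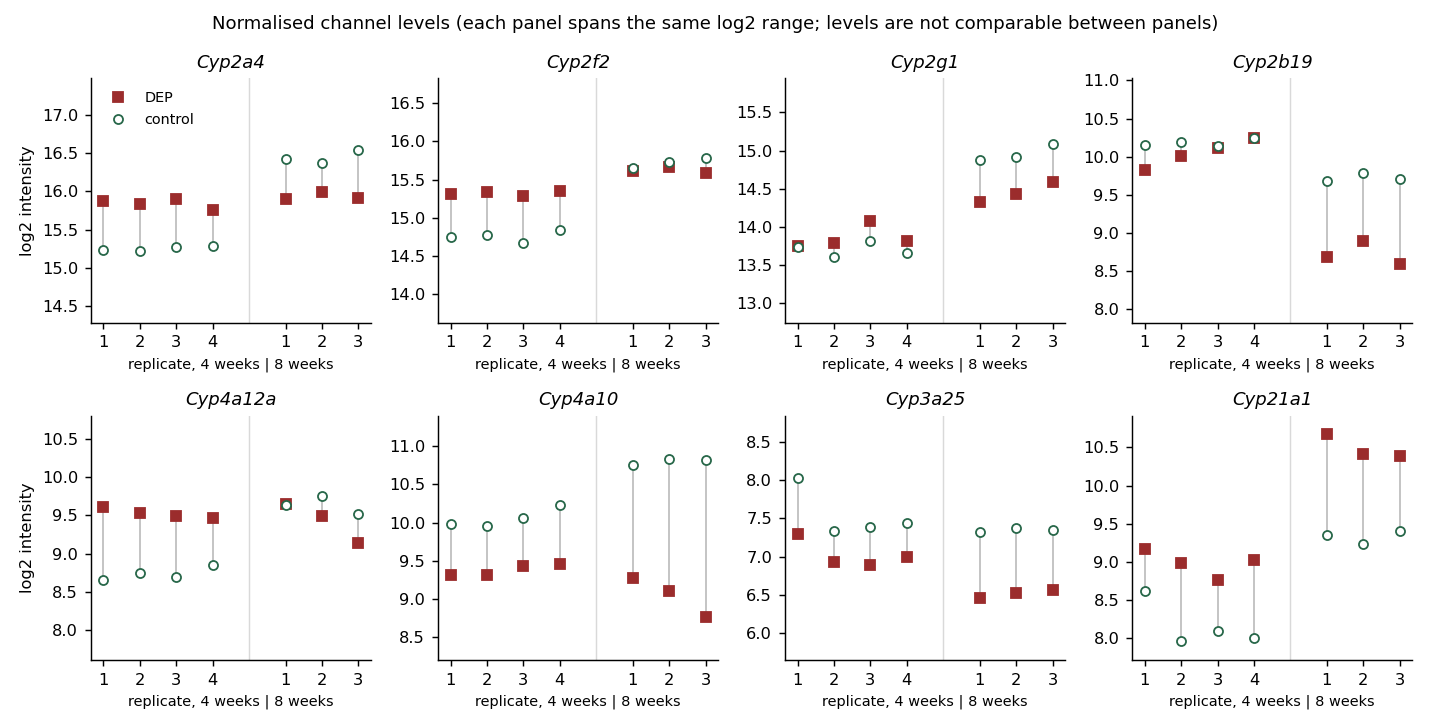
Normalised log2 intensity (y axis) of DEP tissue (squares) and control tissue (open circles) on each array (x axis, replicates of 4 weeks and then of 8 weeks) for 8 P450 genes, with a grey line joining the channels of 1 array. For *Cyp2a4* the squares stay between 15.76 and 15.99 while the circles lie between 15.22 and 15.29 at 4 weeks and between 16.37 and 16.54 at 8 weeks.

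The genes that serve P450 enzymes were followed as well. Of 23 tested partner genes, 5 were higher and 7 lower at 4 weeks, and 1 was higher and 14 lower at 8 weeks, with medians of -0.01 and -0.39. These 23 include *Ptgis* and *Tbxas1*, which are P450s themselves, and *Ptgis* is among the 7 lower at 4 weeks. Over all names, 21.5% were higher and 16.7% lower at 4 weeks, and 20.4% and 17.1% at 8 weeks. All 6 electron donors were lower at 8 weeks, with a median of -0.46, whereas 2 were higher and 1 lower at 4 weeks. *Por*, the reductase that feeds all microsomal P450s, had ratios of 0.16, 0.48, 0.58 and 0.47 at 4 weeks and -0.34, -0.50 and -0.42 at 8 weeks, all above 0 at 4 weeks and all below 0 at 8 weeks, as were most olfactory markers, whose part in this value was not tested. *Fdxr*, the reductase of the mitochondrial P450s, was likewise higher at 4 weeks (0.63, adjusted p = 0.00061) and lower at 8 weeks (-0.50, adjusted p = 0.0035). The cytochrome b5 genes *Cyb5a* (-0.41) and *Cyb5b* (-0.65) and the b5 reductase *Cyb5r3* (-0.63) were lower at 8 weeks, with 4-week means of -0.13, -0.14 and -0.18 that were not called.

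Of 11 genes of haem synthesis and breakdown, 2 were higher and 4 lower at 4 weeks, against 21.5% and 16.7% of all names. At 8 weeks 1 was higher and 6 were lower, against 20.4% and 17.1% of all names. *Alas1*, the rate-limiting enzyme of haem synthesis, had 1.11, 1.06, 0.94 and 0.95 at 4 weeks and -1.28, -1.22 and -1.22 at 8 weeks, a 2.02-fold higher and then a 2.36-fold lower level (adjusted p = 8e-06 and 4.5e-06). The later enzymes *Alad* (-0.41 and -0.94) and *Urod* (-0.38 and -1.07) were lower at both times. The epoxide hydrolases, which act on P450 products, did not run alike, with *Ephx1* higher at 4 weeks (0.24) and lower at 8 weeks (-0.39) and *Ephx2* lower at both (-0.65 and -0.84).

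**Figure D4:**
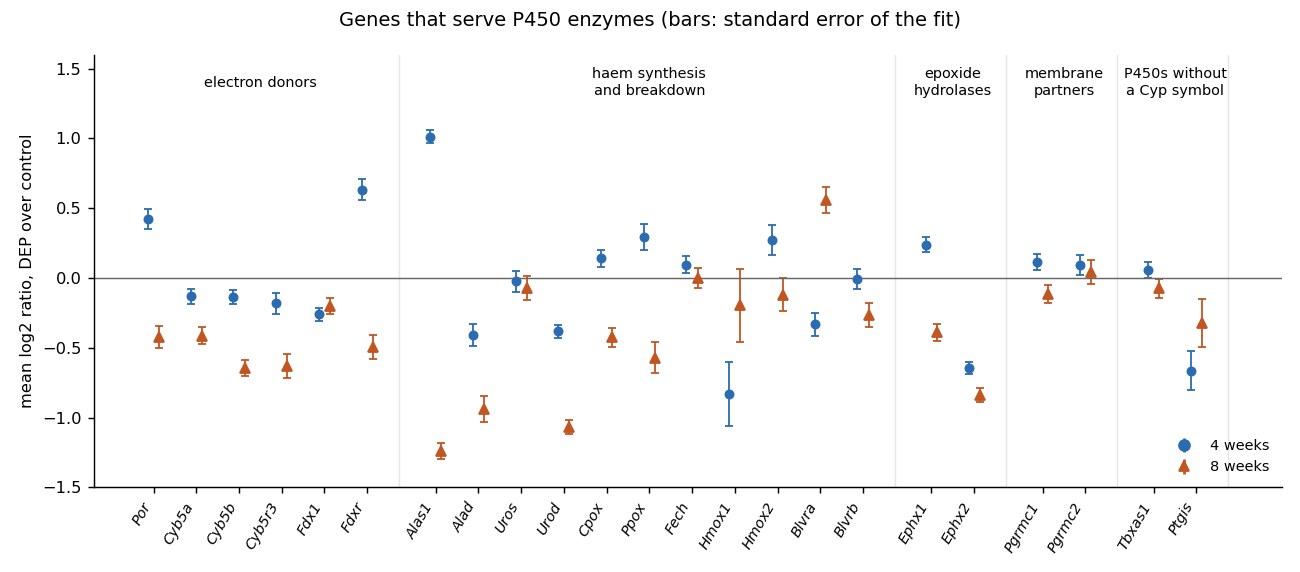
Mean log2 ratio of DEP over control (y axis) at 4 weeks (circles) and 8 weeks (triangles), with the standard error of the fit as bars, for 23 genes (x axis). They are genes that serve P450 enzymes and 2 P450s without a Cyp symbol. All 6 electron donors lie below 0 at 8 weeks, and *Alas1* runs from 1.01 to -1.24.

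Of 25 listed regulators of P450 genes, 21 were tested, of which 7 were higher and 3 lower at 4 weeks, against 21.5% and 16.7% of all names. At 8 weeks 6 were higher and 8 lower, against 20.4% and 17.1% of all names. The clock-driven factors *Dbp*, *Tef* and *Hlf*, which activate *Cyp2a4* and other P450 genes in liver, were higher at 4 weeks (1.69, 0.98 and 0.91) and lower at 8 weeks (-1.06, -0.55 and -0.53). *Dbp* had 1.98, 1.66, 1.57 and 1.55 at 4 weeks and -0.90, -1.03 and -1.25 at 8 weeks. *Ppara*, the receptor that induces Cyp4a genes, was higher at both times (0.38 and 0.22), *Pparg* was lower at 8 weeks (-0.84), and *Cebpa*, which encodes a C/EBP factor, was lower at both times (-0.24 and -1.01). *Nr1i3*, which encodes CAR, was higher at 8 weeks (0.54). *Nr1i2*, *Hnf4a*, *Foxa2* and *Nr5a2* were too dim to be tested.

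Promoters of 42 of the 55 tested genes were in the RefSeq table, as 45 windows from 250 bases before to 50 bases after a start. Each motif was searched on both strands. The direct repeat 1 site that PPAR binds was present in 0.381% of all 32851 promoters and in those of *Cyp2d40* and *Cyp2d9*. The D-box (TTANGTAA), which *Dbp*, *Tef* and *Hlf* bind, was in 2.32% of all promoters and in that of *Cyp2c38*. The core of the AhR site (TNGCGTG) was in 5.07% of all promoters and in 0 of the 45. The TATA box was in 13.6% of all promoters and 11 of the 45, and the C/EBP site, a motif added after the *Cyp2a4* sequence had been read, in 10.8% and 10 of the 45. These matches describe letters only, and *Cyp2g1*, *Cyp4a10*, *Cyp4a12a* and *Cyp4a31* are not covered.

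Of 7 gland markers 3 were higher and 1 lower at 4 weeks, against 21.5% and 16.7% of all names. At 8 weeks 2 gland markers were higher and 2 lower, against 20.4% and 17.1% of all names. The lower ones at 8 weeks were the secreted proteins *Bpifa2* (-4.05) and *Muc5b* (-1.54), while the other 5 had means between -0.19 and 0.36. Squamous epithelium had all 6 markers lower at 4 weeks, with medians of -1.10 to -0.74, and medians of -0.03 to 0.07 at 8 weeks, where 3 were higher and 2 lower. *Cyp2b19*, a keratinocyte enzyme, had -0.13 at 4 weeks, where it was not called, and -0.99 at 8 weeks. Of 6 skeletal muscle markers, 1 was higher and 2 lower at 4 weeks and 1 higher and 4 lower at 8 weeks, with a median of -0.76 at 8 weeks. The 4 tested ciliated markers were 2 higher and 0 lower at each time, and the 4 tested secretory markers 1 higher and 1 lower at 4 weeks and 2 higher and 0 lower at 8 weeks. Of 5 hepatocyte markers, *Alb*, *Fgb* and *Serpina3k* were too dim to be tested, *Apoa2* was higher at both times (0.55 and 0.31), and *Fga* was called at neither.

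**Figure D5:**
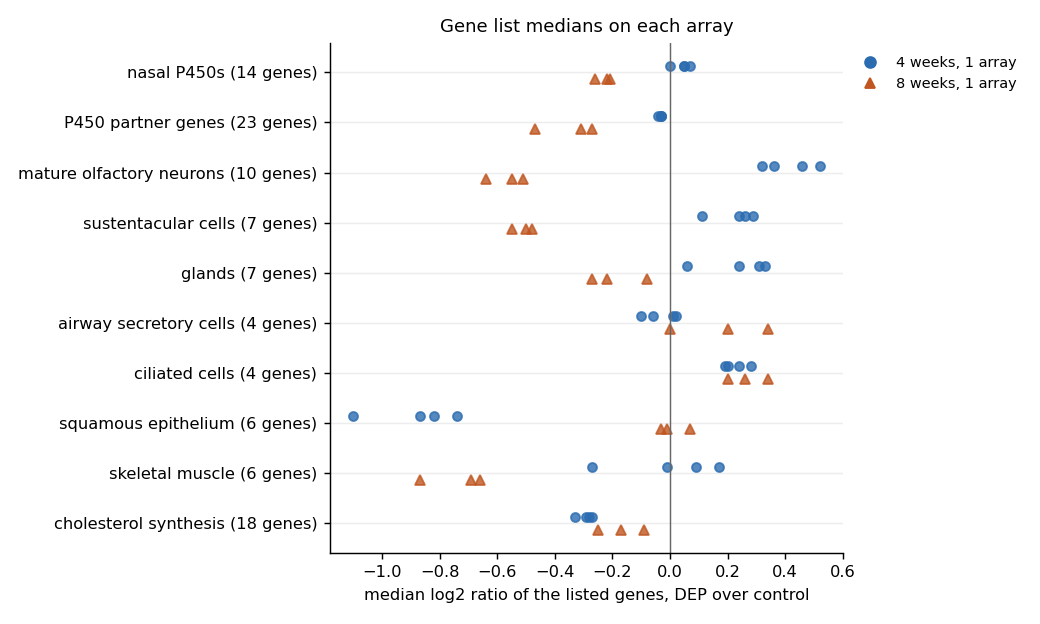
Median log2 ratio of DEP over control (x axis) over the tested genes of each list (y axis), with a circle for each 4-week array and a triangle for each 8-week array. Neuron and sustentacular markers lie above 0 at 4 weeks and below 0 at 8 weeks. The median of the 14 nasal P450s lies between 0 and 0.07 and then between -0.26 and -0.21. That list also holds the sterol and vitamin D genes *Cyp51*, *Cyp27a1*, *Cyp7b1* and *Cyp2r1*. Its genes did not run alike, with 5 higher and 2 lower at 4 weeks and 2 higher and 7 lower at 8 weeks.

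The called values were not equally well measured. Spots marked for their background also gave single values of *Cyp2r1* (replicate 3 of 8 weeks) and *Cyp3a59* (replicate 1 of 8 weeks). The same holds at 4 weeks for *Cyp2b10* (replicate 3), *Cyp3a57* (replicate 4) and *Cyp20a1* (replicate 4). Leaving out all marked spots kept 74 of the 76 calls made at 4 weeks, at 8 weeks and in the difference. On the probe used for a gene, both channels were well above background on all 7 arrays for 31 of the 55 genes, and 3 genes were above background only at 8 weeks. Of the 24 calls at 4 weeks, 18 had both channels above background on every array of that time and 3 had a channel that was dim on every array, and of the 29 calls at 8 weeks the numbers were 25 and 2. The remaining 37 P450 genes were well above background on at most 2 arrays and were not tested. Among them were the liver genes *Cyp3a11*, *Cyp2c29*, *Cyp7a1* and *Cyp8b1*, the PPAR-alpha target *Cyp4a14*, the vitamin D genes *Cyp24a1* and *Cyp27b1*, the aromatase *Cyp19a1* and the adrenal and gonadal genes *Cyp11a1*, *Cyp11b1* and *Cyp11b2*. The others were *Cyp2a12*, *Cyp2a22*, *Cyp2ab1*, *Cyp2b13*, *Cyp2b23*, *Cyp2c39*, *Cyp2c54*, *Cyp2c55*, *Cyp2c67*, *Cyp2c68*, *Cyp2d10*, *Cyp2d12*, *Cyp2d13*, *Cyp2d34*, *Cyp2d37-ps*, *Cyp2j5*, *Cyp2u1*, *Cyp3a16*, *Cyp3a41b*, *Cyp3a44*, *Cyp4a29*, *Cyp4a30b*, *Cyp4f14*, *Cyp4f37*, *Cyp4f41-ps* and *Cyp4x1*.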

How the data were processed

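Nasal RNA of exposed and of control mice was hybridised to 7 Agilent Mouse Gene Expression 4x44K V2 arrays with 2 dyes. The authors deposited scanner output of Feature Extraction 10.10.1.1, 1 file per array, with the median intensity of each spot and its background in both dyes, processed intensities and log10 ratios of Cy5 over Cy3. The GeneSpring normalisation of the study is not part of these files. The deposited processed intensities and log10 ratios had been background-subtracted and dye-normalised by the scanner software, and the former served as an alternative.

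Median intensities were corrected by normexp with offset 50, with parameters fitted without spots marked as background outliers, and normalised by loess within arrays (limma 3.58.1, R 4.3.3). Control spots and non-uniform or outlying spots were left out, and spots of a probe were averaged. A probe was tested when well above background in either dye on at least 3 of 7 arrays, which kept 25162 of 39429 probes. A gene took the value of its brightest tested probe. Genes were named from the RefSeq accession on the array, which gave a name to 28330 probes. Levels per dye were made comparable between arrays by Aquantile normalisation and only describe. No spot of these genes was saturated.

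limma fitted 1 mean per exposure time over all 7 arrays, and p-values were adjusted by the Benjamini-Hochberg method over all tested probes. Values are log2 ratios, and errors are SDs over arrays or standard errors of the fit. No fold is given for a probe with a dye that was not well above background on any array of a time. The script was tested on simulated data. The probes well above background numbered 18601 to 25069 per array in DEP tissue and 16985 to 26927 in control tissue, and correlations between arrays were 0.439 to 0.491 within 4 weeks, 0.71 to 0.876 within 8 weeks and 0.09 at the lowest between times. Named with full values were, at each time, the 8 highest and 8 lowest called genes with 1 sign on every array of that time, the 6 largest called differences, and P450s known from nasal mucosa. Other genes were named by symbol and log2 ratio or by symbol alone. The genes and the lists were chosen with earlier results of these data known. Cyp2a5, Cyp2j12, Cyp3a41a, Cyp2c40 and Cyp2c69 had no probe matched by accession and were not analysed here, and Cyp2c44 is listed as Cyp2c23. Promoters came from RefSeq (GRCm38.p6) and were aligned with Biopython 1.88. Some genes of the lists are not reported here and were left out of the list counts.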

Additional observations from a re-analysis of the deposited data

Results flagged for a closer look

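Replicate 1 of *Cyp2b10* at 4 weeks (-0.49) and replicate 2 of *Cyp4b1-ps2* at 4 weeks (-1.35) lay far from the other 3 arrays, with a gap of 0.882 and 0.96 of the group's range. These were 2 of 25 values tested in this way, where chance gives about 1 in 20.

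The ratio of DEP over control differed between 8 and 4 weeks in 23 genes by limma's test of the difference (adjusted p up to 0.05). In the chromosome 7 cluster the differences, 8 weeks minus 4 weeks, were -1.10 for *Cyp2a4*, -0.66 for *Cyp2f2*, -0.66 for *Cyp2g1*, -0.49 for *Cyp2b10* and -0.86 for *Cyp2b19*, against 0.64 for *Cyp2t4*. In the *Cyp2j* cluster they were -0.44 for *Cyp2j6*, -0.35 for *Cyp2j8* and -0.39 for *Cyp2j9*, and *Cyp2r1* had -0.35. *Cyp3a25* had -0.31 and *Cyp3a57* -0.37. Around *Cyp4a10* (-1.07) all other called genes went the same way, with -1.0 for *Cyp4a12a*, -0.91 for *Cyp4a12b*, -0.86 for *Cyp4a31*, -0.73 for *Cyp4a32* and -0.41 for *Cyp4b1*. The *Cyp4f* genes did not, with -0.66 for *Cyp4f13*, -1.59 for *Cyp4f15* and 0.64 for *Cyp4f18*. *Cyp27a1* (0.58) and *Cyp20a1* (0.36) were the other genes with a higher ratio at 8 weeks. None of these differences can be told apart from a difference between the slides.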

How the results depend on the processing

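Of the genes called, 11 of 24 at 4 weeks, 17 of 29 at 8 weeks and 13 of 23 in the difference between the times held in every setting tried. Besides the calls named in the report as lost, those of *Cyp2d26*, *Cyp2j11* and *Cyp4f17* at 4 weeks, *Cyp2d22*, *Cyp4f15* and *Cyp4f18* at 8 weeks, and *Cyp27a1*, *Cyp4a31* and *Cyp4b1* in the difference were lost in at least 1 setting. Without 1 array the genes changed numbered 18 to 27 at 4 weeks, 22 to 34 at 8 weeks and 16 to 23 in the difference. Higher genes ranged from 9 to 13 at 4 weeks, 5 (without replicate 2 of 8 weeks) to 11 at 8 weeks and 2 (without replicate 1 or 2 of 8 weeks) to 5 in the difference, and lower genes from 9 to 15, 17 to 23 and 14 to 18. Genes past the study's thresholds stayed at 0 at 4 weeks and ranged from 4 to 6 at 8 weeks, and the medians from -0.07 to -0.005 (without replicate 4 of 4 weeks) and from -0.164 to -0.115.

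The processed signals of the scanner software put 6 genes past the study's thresholds at 4 weeks and 14 at 8 weeks, with medians of 0.003 and -0.276. Normexp with offset 10 put 9 genes past them at 8 weeks, with a median of -0.184. Normexp fitted on all spots left 7 higher genes at 4 weeks. Median centring, which set the median of all names at -0.135 to 0.038 per array, gave an 8-week median of -0.221 and 2 higher genes in the difference, and reversed *Cyp2r1* at 8 weeks to -0.02 (adjusted p = 0.88). Without a filter on dim probes the 8-week median was -0.029. With both dyes well above background on all arrays the medians were 0.065 and -0.293, with 3 higher genes at 8 weeks and 2 in the difference. The methods' t-test after Benjamini-Hochberg adjustment left 13 genes changed at 4 weeks, 5 of them lower, and 4 higher at 8 weeks, and at the study's thresholds 0 genes at 4 weeks and 4 at 8 weeks. It compared the levels of the 2 dyes without pairing them by array, so the spread of levels between arrays enters its p-values. Leaving out spots marked as background outliers, a setting chosen after seeing the data, gave 3 genes past the thresholds at 8 weeks and a 4-week median of -0.01. The causes of these shifts were not tested.

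The replicate block left 15 genes changed in the difference, 2 of them higher. The replicate numbers did not pair the samples, since deviations of same-numbered arrays correlated at -0.007, -0.007 and 0.017. Depth limits the dim genes, since both dyes were well above background on all arrays for only 31 of the 55.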

Other observations

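Some P450 genes do not carry a Cyp symbol. *Ptgis*, which makes prostacyclin, was lower at 4 weeks, with ratios of -0.52, -1.32, -0.45 and -0.36, and had -0.29, -0.26 and -0.41 at 8 weeks, where it was not called. *Tbxas1*, which makes thromboxane, was called at neither time (0.06 and -0.07). The membrane partners *Pgrmc1* and *Pgrmc2*, which bind P450 enzymes and haem, were called at neither time as well, with a median of 0.10 at 4 weeks and -0.04 at 8 weeks.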
